A study of Mus musculus with 9 samples.

Results

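Wide distal regions are stretches of open chromatin of at least 1000 bp that are away from the ends of protein-coding genes and were found open in all 4 peak lists of the study. They were chosen by merging the peaks of the 4 lists on chromosomes 1 to 19 and X, and keeping each merged region of 1000 bp or more that overlaps a peak of every list and lies more than 1 kb from both ends of every RefSeq protein-coding gene (GRCm38.p6). The merge gave 194700 regions. Of these, 91644 overlap a peak of all 4 lists, 76098 of those are distal, and 2848 of the distal ones are wide. The 2848 wide distal regions are 1.46% of all merged regions, 3.74% of the distal regions in all 4 lists and 34.5% of the 8259 wide regions in all 4 lists, and they cover 3.83 Mb. Width and presence in every list come from the measured peaks, so both are a description of the choice.

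The cells were dendritic cells grown for 9 days from C57Bl/6 bone marrow in 20 ng/mL GM-CSF. On day 2 they received 1 of 4 retroviral vectors: a PCGF6-overexpressing vector (OE), its control vector (mi8), a PCGF6-knock-down vector (HP109), or its control vector (LMP8). All were sorted for the human CD8 reporter of the vector together with CD11c. Each vector had 2 ATAC-seq libraries, whose pooled reads gave 1 peak list, and 1 input library, shared by all vectors, was the background for every list. The knock-down comes from a single named hairpin vector, the labels do not say whether the 2 libraries of a vector came from separate mice, and the level of Pcgf6 itself cannot be read from open chromatin. With 1 list per vector there are no replicates, so the values below carry no SD and no test between vectors. Of 12 dendritic cell marker genes, 10 had a peak at a gene end in all 4 lists. Ciita, the regulator of MHC class II genes, had none in the OE list, and Cd209a, a C-type lectin gene, had one in the HP109 list only. The OE list is the shortest of the 4, with 111488 peaks. No share over all coding genes is given beside the marker count, so it does not identify the cells.

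ATAC-seq marks DNA that a transposase can reach. Open distal DNA is largely made of enhancers, where transcription factors displace nucleosomes and act on a promoter at a distance, and unusually wide or clustered stretches are known at genes that define a cell type and along very active genes. PCGF6 is the subunit that defines PRC1.6, a Polycomb complex best known for keeping germline genes silent through DNA-binding partners such as MGA and E2F6. The study asked how raising or lowering PCGF6 changes chromatin in dendritic cells.

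The distance rule looks only at the outer ends of coding genes, so a wide distal region can still hold the start of a non-coding RNA or an inner start of a coding gene. Of 32619 RefSeq promoter windows (GRCm38.p6, 250 bases before to 50 after each start), 753 lie wholly inside 582 of the wide distal regions and belong to 632 genes. Their median GC content was 63.3%, against 53% over all windows, and they held a median of 23 CpG, against 7. The windows below show starts that results turn on. Malat1 and Mir22hg are the RNAs of 2 of the 10 widest regions, Lncpint and Dleu2 are non-coding genes with wide regions over their starts, and Rbpj and Zeb2 are transcription factor genes with inner starts. Each is written 5′ to 3′ on the strand of the gene, and capitals mark any of 5 searched motifs, on either strand: GAGGAAGT (PU.1 core), TGANTCA (AP-1), TGACGTCA (CRE), CACGTG (E-box) and GCGGGAA (E2F core), none of which contains another.
Malat1, chr19:5802623-5802922, minus strand: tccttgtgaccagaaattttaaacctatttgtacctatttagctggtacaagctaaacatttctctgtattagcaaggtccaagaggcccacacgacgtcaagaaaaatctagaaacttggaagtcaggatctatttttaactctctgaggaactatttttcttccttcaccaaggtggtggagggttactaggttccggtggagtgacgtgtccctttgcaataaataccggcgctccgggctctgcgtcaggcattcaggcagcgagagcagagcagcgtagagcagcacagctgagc
Mir22hg, chr11:75461289-75461588, plus strand: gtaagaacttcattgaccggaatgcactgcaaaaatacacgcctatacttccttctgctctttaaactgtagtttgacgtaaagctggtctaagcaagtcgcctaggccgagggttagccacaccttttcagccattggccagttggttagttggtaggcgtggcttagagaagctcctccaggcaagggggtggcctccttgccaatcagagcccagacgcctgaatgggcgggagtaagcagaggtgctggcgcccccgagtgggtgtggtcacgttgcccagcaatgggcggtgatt
Lncpint, chr6:31218425-31218724, minus strand: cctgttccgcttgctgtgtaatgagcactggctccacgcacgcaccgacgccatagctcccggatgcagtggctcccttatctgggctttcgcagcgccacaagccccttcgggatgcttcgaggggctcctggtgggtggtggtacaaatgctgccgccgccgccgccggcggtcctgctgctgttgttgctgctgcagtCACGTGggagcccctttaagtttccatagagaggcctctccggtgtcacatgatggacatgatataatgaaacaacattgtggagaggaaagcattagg
Dleu2, chr14:61682324-61682623, minus strand: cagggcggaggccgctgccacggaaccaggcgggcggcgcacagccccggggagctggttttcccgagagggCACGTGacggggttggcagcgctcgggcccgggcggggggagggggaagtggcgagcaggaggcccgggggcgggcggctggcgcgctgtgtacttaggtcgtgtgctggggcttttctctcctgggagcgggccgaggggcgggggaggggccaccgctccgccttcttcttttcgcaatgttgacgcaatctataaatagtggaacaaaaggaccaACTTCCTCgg
Rbpj inner start, chr5:53590096-53590395, plus strand: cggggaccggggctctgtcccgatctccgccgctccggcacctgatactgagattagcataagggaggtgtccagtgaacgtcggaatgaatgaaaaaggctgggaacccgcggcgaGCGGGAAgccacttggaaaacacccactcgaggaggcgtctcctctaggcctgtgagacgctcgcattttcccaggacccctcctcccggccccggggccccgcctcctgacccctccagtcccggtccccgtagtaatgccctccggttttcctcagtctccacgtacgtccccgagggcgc
Zeb2 inner start, chr2:45110228-45110527, minus strand: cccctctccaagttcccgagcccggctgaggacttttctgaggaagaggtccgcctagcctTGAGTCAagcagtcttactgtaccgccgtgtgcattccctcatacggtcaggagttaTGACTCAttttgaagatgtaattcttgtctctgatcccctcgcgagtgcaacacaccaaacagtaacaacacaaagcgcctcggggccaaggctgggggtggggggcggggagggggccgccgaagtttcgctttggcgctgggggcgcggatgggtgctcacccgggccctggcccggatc

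The Lncpint window holds an E-box, the Dleu2 window an E-box and a PU.1 core, the Rbpj window an E2F core and the Zeb2 window a pair of AP-1 matches. Other windows of Rbpj (chr5:53590236-53590535) and Zeb2 (chr2:45113204-45113503 and chr2:45113230-45113529) inside wide distal regions held none of these motifs and are not printed. Over the 753 windows inside wide distal regions, 9.16% held the E-box, 7.57% the E2F core, 6.91% AP-1, 3.19% CRE and 3.05% the PU.1 core. Over all windows the shares were 7.20%, 4.63%, 7.85%, 1.80% and 3.22%, and over the 5964 windows that start in wide regions at gene ends they were 11.2%, 10.1%, 3.84%, 3.39% and 2.97%. A match describes these letters in this window and no binding was measured.

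miRNA genes overlap 10 wide distal regions, and 19 mature sequences from 11 hairpins were found in 9 of them. The hairpin of Mir210 lies only in part inside its region, by 60 of 110 bases that hold the 5p arm. 6 mature sequences are shown here with the seed, bases 2 to 8, in capitals (RefSeq, GRCm38.p6), because they come from miRNAs well known in blood cells, in hypoxia or in the let-7 family.
mmu-miR-142a-5p: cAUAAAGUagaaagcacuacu
mmu-miR-142a-3p: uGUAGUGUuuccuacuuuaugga
mmu-let-7i-5p: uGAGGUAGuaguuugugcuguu
mmu-miR-210-5p: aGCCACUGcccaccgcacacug
mmu-miR-132-3p: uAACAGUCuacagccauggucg
mmu-miR-212-3p: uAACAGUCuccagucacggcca

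miR-132-3p and miR-212-3p share the seed AACAGUC and lie in the same region, chr11:75172858-75173919. There, peaks covered 891 bp in HP109, 835 bp in LMP8, 194 bp in OE and 1062 bp in mi8. OE stood apart with the shortest cover. The highest summit pileup, the number of ATAC fragments stacked on the top of the highest peak as recovered from each list's fold and p-value, was 23 in HP109, 23 in LMP8, 17 in OE and 34 in mi8. The region over Mir142, a miRNA gene of blood cells (chr11:87755988-87756999), had pileups of 71, 46, 53 and 78 in that order, and OE covered more of it (1012 bp) than mi8 (727 bp). The region over Mirlet7i (chr10:122985206-122986633) was covered nearly alike, by 1362, 1392, 1392 and 1420 bp. The region over Mir210, a miRNA gene known for its response to hypoxia (chr7:141221434-141222440), had among the higher pileups, with 100 in HP109, 66 in LMP8, 102 in OE and 97 in mi8.

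The wide distal regions were mostly just wide. Their median width was 1214 bp with quartiles of 1087 and 1466 bp, 1553 of them (54.5%) were under 1250 bp, 170 (5.97%) reached 2000 bp and 22 reached 3000 bp. The median of the 73250 narrow distal regions in all 4 lists was 358 bp, and that of the 5411 wide regions within 1 kb of a gene end was 1355 bp. Merging joins peaks, so a wide region need not be a wide peak. In 560 regions (19.7%) each list had a peak of at least 1000 bp of its own, and in 505 (17.7%) no list had one. A region was 1 unbroken peak in all 4 lists in 820 cases (28.8%).

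The lists did not cover the regions evenly. The median share of bases covered by peaks was 88.5% in HP109, 87.5% in LMP8, 77.5% in OE and 94.7% in mi8. OE had the shortest cover in 1944 regions (68.3%), and mi8 the longest in 1545 (54.2%). In narrow distal regions these shares were 61.3% and 49.2%. The same order of OE and mi8 held for narrow distal regions, where the medians were 86.9%, 80.7%, 69.4% and 93.1%, so short cover in OE was seen in both classes. The OE list was also the shortest of the 4 overall. It has 111488 peaks, LMP8 140716, HP109 170077 and mi8 170946.

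**Figure D1:**
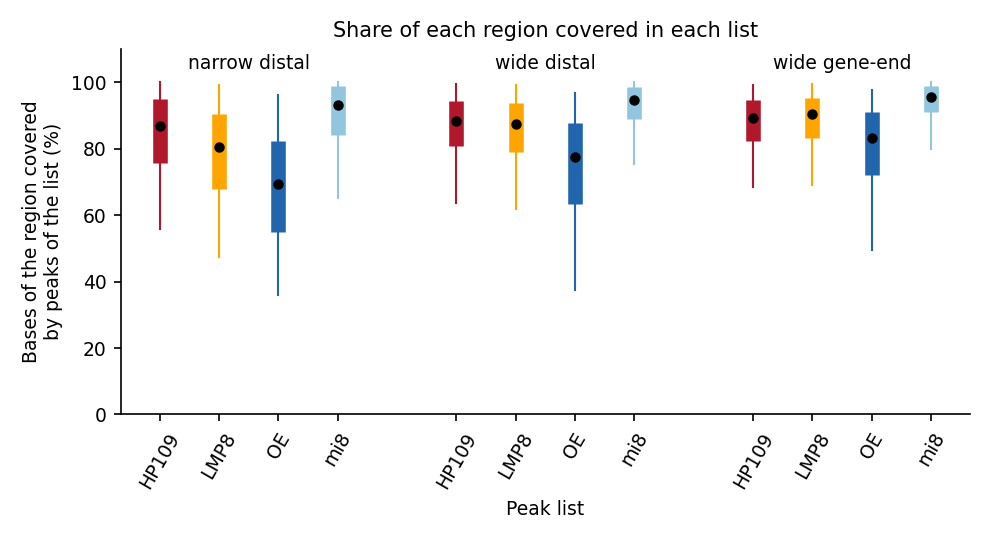
Share of the bases of each region covered by peaks of each list (y axis, %), for narrow distal, wide distal and wide gene-end regions present in all 4 lists. Points are medians, thick bars the middle range between quartiles and thin lines the 5th to 95th percentile over regions. In wide distal regions the OE median is 77.5% and the mi8 median 94.7%.

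The median highest summit pileup of a wide distal region was 70 in HP109, 47 in LMP8, 62 in OE and 74 in mi8. Narrow distal regions had 33, 23, 26 and 37, and wide gene-end regions 76, 51, 74 and 79. Wide distal regions were therefore nearer in height to wide gene-end regions than to narrow distal ones. Pileup goes up with width among distal regions, and width chose them. LMP8 had the lowest pileup in 2464 regions (86.5%), a share that was not counted for other regions. Its median was the lowest in all 3 classes. HP109 pileup was above LMP8 in 97.7% of wide distal regions and in 90.4% of all regions in all 4 lists. The lowest background level seen in a list was 1.35 fragments in HP109, 1.42 in LMP8, 2.00 in OE and 1.95 in mi8, close within each vector pair and different between the pairs. The number of reads behind each list is unknown from these files.

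The lists placed the top of most regions close together, though less so than in narrow distal regions. The highest summits of the 4 lists lay within a median of 66 bp of each other, against 41 bp in narrow distal and 71 bp in wide gene-end regions. In 1824 wide distal regions (64.0%) they lay within 100 bp, and in 366 (12.9%) more than 500 bp apart. These shares were 89.3% and 0.187% in narrow distal regions, and 63.9% and 9.70% in wide gene-end regions. A longer region leaves more room for this spread. Among distal regions in all 4 lists ranked by the lowest of their 4 −log10 q values, 33 of the top 100, 297 of the top 1000 and 1728 of the top 10000 were wide.

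Starts inside the regions were common. Of the 2848 wide distal regions, 638 (22.4%, 95% exact binomial interval 20.9 to 24.0, counting error only) held a RefSeq start, against 1.81% of narrow distal regions. An inner or other start of a coding gene was in 485 (17.0%) and a lncRNA start in 210 (7.37%). Since a longer region holds more by length alone, starts were also counted only within 250 bp of the midpoint. They were there in 379 wide distal regions (13.3%), 1.80% of narrow distal regions and 52.6% of wide gene-end regions. The share went up with width, from 0.655% below 250 bp to 6.77% at 750 to 999 bp, 10.3% at 1000 to 1249 bp and 23.0% from 2000 bp to below 3000 bp. The 22 regions of 3000 bp or more had 2 (9.09%, 95% exact interval 1.12 to 29.2).

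**Figure D2:**
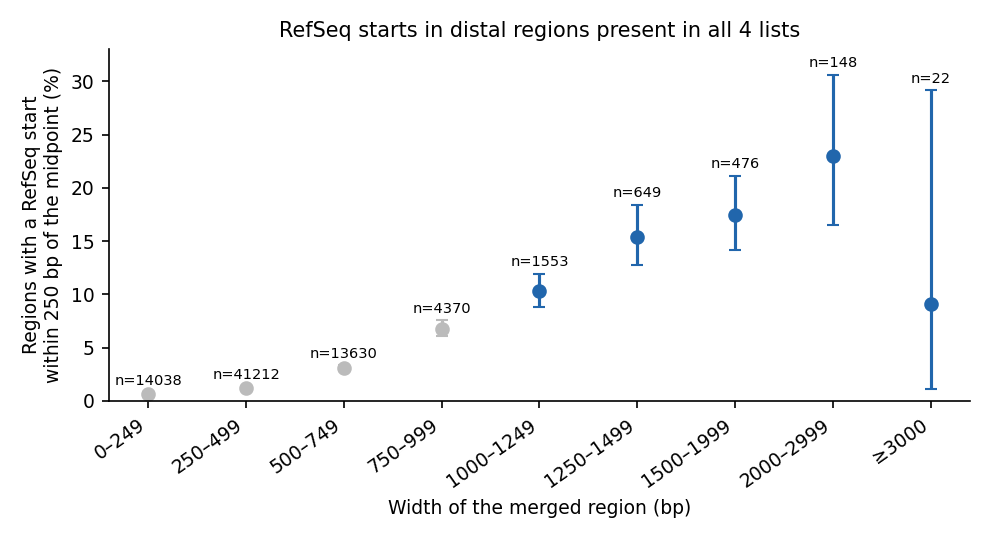
Distal regions in all 4 lists with a RefSeq start within 250 bp of the midpoint (y axis, %), by width of the merged region (x axis, bp). Points are shares with exact 95% binomial intervals (counting error only), n is the number of regions, and blue marks wide distal regions. The share goes from 0.655% in the narrowest class to 23.0% from 2000 bp to below 3000 bp.

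Non-coding genes and pseudogenes, starts or bodies, overlapped 638 wide distal regions (22.4%), against 13.6% of narrow distal regions. A longer region overlaps more by length alone, and these shares were not corrected for width. The overlapped regions are not all the same as those with a start, and 1808 (63.5%) had neither a RefSeq start nor a non-coding gene. The midpoint lay inside the span of a coding gene in 60.3%, against 54.9% of narrow distal regions. The median distance to the nearest coding gene end was 14.02 kb, against 19.3 kb, and 140 regions (4.92%) had no coding gene within 100 kb.

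Small RNA genes made up a small but distinct group. Spliceosomal and nucleolar U RNA genes, which RefSeq lists here as snRNA, overlapped 27 wide distal regions (0.948%) and 17 narrow distal ones (0.0232%). tRNA genes overlapped 41 wide (1.44%) and 86 narrow ones (0.117%). lncRNA genes overlapped 532 wide ones (18.7%), against 12.0% of narrow ones. None of these shares was corrected for the greater length of wide regions. The snRNA regions had a median width of 1777 bp with median pileups of only 51 in HP109, 32 in LMP8, 43 in OE and 46 in mi8, so they were wider and lower than the wide distal regions as a whole. OE covered more than mi8 in 17 of the 27, with a median covered ratio of 1.09, and HP109 covered more than LMP8 in 23 of the 27, with a median of 1.13. Over all wide distal regions OE covered more than mi8 in 343 (12.0%) and HP109 more than LMP8 in 1504 (52.8%). For tRNA regions OE covered more in 7 of 41, and HP109 in 17 of 41. snRNA and tRNA genes have near-identical copies, so reads there may be shared between copies.

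The largest set of snRNA regions lay inside Tex14, a gene of germ cell bridges, which held 7 wide distal regions. 6 of them overlap snRNA genes, among them Rnu1a1 (U1) and Rnu3b1 to Rnu3b4 (U3). At Rnu1a1 (chr11:87422850-87425988, 3139 bp) the peaks covered 2835 bp in HP109, 2424 bp in LMP8, 3117 bp in OE and 2418 bp in mi8, with pileups of 83, 54, 77 and 78. Next to it, at Gm22068 (chr11:87426324-87428867), OE covered 2455 bp against 1361 bp in mi8, and HP109 2232 bp against 1483 bp in LMP8. OE covered more than mi8 in 7 of 7 Tex14 regions. Their median pileup ratio of OE to mi8 was 0.987, so the cover was longer while the height was close to equal. The 7 regions lie in 1 gene and come from the same lists, so they are not separate observations.

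Of the 10 widest regions, 5 overlap long non-coding RNA genes. The widest lies across Neat1, the RNA that builds paraspeckles (chr19:5840268-5847560, 7293 bp), and was covered by 6951 bp in HP109, 5497 bp in LMP8, 6318 bp in OE and 5636 bp in mi8. Malat1, its nuclear-retained neighbour RNA, had a region of 3478 bp (chr19:5800935-5804412). There OE covered 3376 bp in 1 peak, mi8 1609 bp in 3 peaks, HP109 2670 bp and LMP8 2200 bp, while pileups were 53, 55, 59 and 38. Mir22hg, the host RNA of miR-22, had 3500 bp (chr11:75459882-75463381) with pileups of 100 in HP109, 59 in LMP8, 99 in OE and 98 in mi8, and each list covered between 3171 and 3250 bp. Regions at Gm7854 in Cpeb2 (3531 bp) and at AU022793 (3406 bp) also overlap lncRNA genes.

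4 more of the widest regions are near coding genes with roles in blood cells. A region past Btg1, an anti-proliferative gene (chr10:96625155-96629635, 4481 bp), had pileups of 89 in HP109, 58 in LMP8, 92 in OE and 97 in mi8. One inside Kdm6b, the H3K27 demethylase gene (chr11:69408478-69412219, 3742 bp), had 72, 50, 63 and 73. The region past Malt1, a signalling protease of NF-kB activation (chr18:65488598-65492365, 3768 bp), was covered by 3517 bp in HP109, 3015 bp in LMP8, 1619 bp in OE and 3181 bp in mi8. The one inside Cd36 is described with its neighbours further on.

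The second widest region stood apart. At chr1:24611556-24616225 (4670 bp) lie the pseudogenes Gm10222 and Gm10925, in a stretch known as a nuclear copy of mitochondrial DNA. Its pileups were the highest of any wide distal region in HP109 (141), OE (149) and mi8 (123), and 75 in LMP8. The authors' fold enrichment over background was 6.35 in HP109, 3.26 in LMP8, 4.58 in OE and 3.89 in mi8, far below the wide distal medians of 25.3, 16.8, 17.4 and 20.7. Each list covered it as 1 peak of at least 4594 bp. Reads from this copy and from the mitochondrial genome cannot be told apart here, so its values are uncertain.

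The 10 regions with the highest lowest-of-4 −log10 q were each strong in all lists. They include inner regions of Selp, an adhesion receptor gene, and Stap1, a signalling adaptor gene, and an inner start of Stag1, a cohesin subunit gene. The Stag1 region (chr9:100642148-100644905, 2758 bp) had pileups of 100 in HP109, 76 in LMP8, 114 in OE and 101 in mi8 and was a single peak in each list. A region assigned to Tnfaip3, the NF-kB inhibitor A20, at the start of the lncRNA Gm51814 had 99, 74, 96 and 107. In both examples LMP8 was the lowest list, and OE and mi8 were close to HP109.

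Some wide distal regions lay close together. Another wide distal region lay within 12500 bp of 616 of them (21.6%), and 59 groups had at least 3, holding 226 regions in all. Each region was assigned to the coding gene it lies in or, within 100 kb, to the nearest. By this count 2009 of 21631 coding genes (9.29%) had at least 1, 278 had 2, 157 had at least 3 and 25 at least 5. Cdh23 and Zeb2 led with 9 each, followed by Cd36 and Plek with 8, and Tex14 and Tomm20 with 7. Some neighbours are split only by a short gap, as at Rbpj between chr5:53662092-53663113 and chr5:53663127-53665168. Counts per gene are therefore not counts of separate sites, and the share with a neighbour was not counted for other distal regions. The 7 assigned to Tomm20 all lie along the lncRNA Gm31718, which is a different gene.

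**Figure D3:**
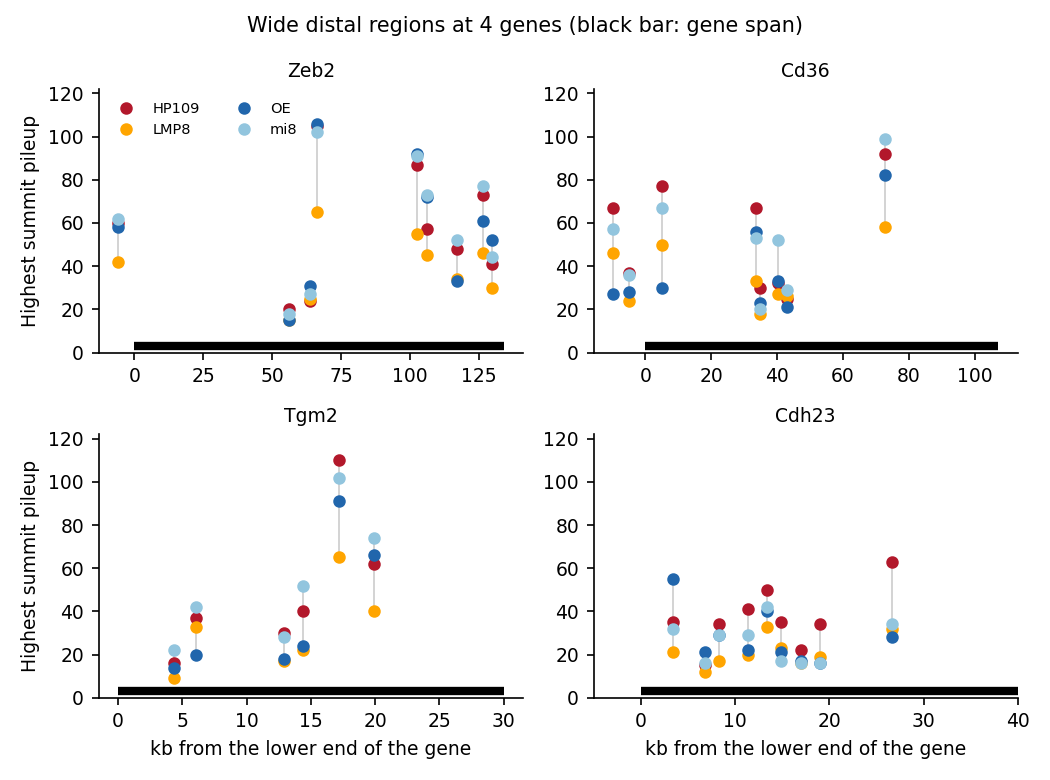
Highest summit pileup (y axis, fragments) of each wide distal region at Zeb2, Cd36, Tgm2 and Cdh23 against its distance from the lower end of the gene (x axis, kb), with 1 point per peak list and a black bar for the gene span (for Cdh23 only the first 40 kb of the gene are drawn). LMP8 is at or near the bottom at most regions, and OE lies well below mi8 at several Cd36 and Tgm2 regions.

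Zeb2 encodes a transcription factor needed in dendritic cell and macrophage development. Of its 54 distal regions in all 4 lists 9 were wide, 8 of them inside the gene. The strongest (chr2:45049172-45050387) had pileups of 105 in HP109, 65 in LMP8, 106 in OE and 102 in mi8. The weakest (chr2:45039107-45040200) had 20, 15, 15 and 18. The region with the inner start printed above (chr2:45109242-45110829) had 73, 46, 61 and 77. OE covered more than mi8 in 4 of the 9, so cover at Zeb2 did not share 1 direction.

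Rbpj, the DNA-binding effector of Notch signalling, had 6 wide distal regions. The widest holds inner starts (chr5:53588172-53591327, 3156 bp), with pileups of 85 in HP109, 58 in LMP8, 87 in OE and 80 in mi8 and cover of at least 2858 bp in each list. A region beyond the far end of the gene (chr5:53663127-53665168, 2042 bp) was unlike it, covered by 1740 bp in HP109, 1549 bp in LMP8, 381 bp in OE and 1925 bp in mi8. Klf6, an immediate-early zinc finger factor, also had 6. Its widest lies at the start of the lncRNA Gm35413 (chr13:5802053-5805408, 3356 bp), with pileups of 97, 56, 91 and 99. Plek, encoding the protein kinase C substrate pleckstrin, had all 8 of its regions inside a gene of 37.5 kb. The pileup at the highest of them (chr11:17004555-17006313) was 95 in HP109, 68 in LMP8, 76 in OE and 113 in mi8.

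Across 16 lists of genes, the share of genes with a wide distal region differed widely around the 9.29% of all coding genes. These lists were chosen with earlier results known, and genes with more or longer open surroundings have more chances. Dendritic cell and myeloid transcription factor genes had one in 27 of 49 (55.1%), with 69 regions. Zeb2 had 9, Rbpj and Runx1 6 each, Etv6 5, and Atf3, Cebpb and Fli1 4 each. Spi1, which encodes PU.1, and Zbtb46, a factor specific to conventional dendritic cells, had 1 each. These genes had a median of 13 distal regions in all 4 lists, against 1 over all coding genes. Of their 833 distal regions, 8.28% were wide, against 3.84% near all coding genes.

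GM-CSF receptor signalling genes had a wide distal region in 9 of 21 (42.9%), led by Mcl1, a survival factor gene, and Jak1 with 3 each. The widest at Mcl1 (chr3:95650066-95653075, 3010 bp) had pileups of 70 in HP109, 61 in LMP8, 63 in OE and 72 in mi8. Glycolysis and hypoxia genes had one in 9 of 25 (36%), with 3 at Pfkfb3, a glycolytic regulator, and 2 each at Hif1a, Slc2a1 and Pfkp. NF-kB and Toll-like receptor genes had one in 11 of 33 (33.3%), with 2 each at Nfkbia, Nfkb1, Tnip3, Tlr2 and Tlr4. The one over an inner start of Nfkb2 (chr19:46304156-46306231, 2076 bp) had 70, 44, 68 and 84.

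Costimulation and maturation genes had one in 8 of 30 (26.7%), with 4 at the adhesion receptor gene Cd44 and 1 at Cd86, the costimulatory ligand gene. At Cd86 (chr16:36631580-36632847) the pileups were 73 in HP109, 43 in LMP8, 57 in OE and 72 in mi8. Macrophage and monocyte genes had one in 7 of 30 (23.3%), and Cd36 held 8 of the 17 regions. Cytokine and chemokine genes had one in 6 of 33 (18.2%), interferon response genes in 5 of 35 (14.3%) and antigen presentation genes in 2 of 22 (9.09%). The antigen presentation genes were Cd1d1 and Cd74. The Cd74 region (chr18:60805429-60808039, 2611 bp), inside the invariant chain gene, was covered by 2611 bp in HP109, 2071 bp in LMP8, 1506 bp in OE and 2030 bp in mi8.

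3 of the 20 genes of Pcgf6 and PRC1.6 (15%) had a wide distal region: Pcgf5, Yaf2 and Mga. Pcgf5 encodes another PCGF subunit and Mga a DNA-binding partner of PCGF6. The Pcgf5 region covers an inner start (chr19:36409109-36410484), with pileups of 72 in HP109, 60 in LMP8, 80 in OE and 86 in mi8. The region near Yaf2 (chr15:93340532-93341713), a RYBP relative, had 94, 67, 83 and 93. Pcgf6 itself had none.

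Among lists for other cell types, erythroid and megakaryocyte genes had a wide distal region in 0 of 15. Granulocyte and mast cell genes had one in 1 of 22 (4.55%), Ltf, the lactoferrin gene, and lymphoid and plasmacytoid genes in 2 of 25 (8%), Klrb1c with 3 and Cd247. The share was 3 of 18 (16.7%) for stroma and endothelium genes: Pdgfra, Pdgfrb and Pecam1. Developmental Polycomb target genes had one in 1 of 35 (2.86%), Pax6, and ubiquitously expressed genes in 2 of 22 (9.09%).

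Wide regions were also counted among the distal regions in all 4 lists assigned to the genes of each list, where the share over all coding genes was 3.84%. After the 8.28% of the transcription factor genes, it was 7.5% for GM-CSF receptor signalling, 6.69% for macrophage and monocyte, 6.45% for lymphoid and plasmacytoid and 6.33% for glycolysis and hypoxia genes. It was 5.06% for ubiquitously expressed, 4.97% for NF-kB and Toll-like receptor, 4.78% for costimulation and maturation and 4.29% for interferon response genes. Antigen presentation genes and genes of Pcgf6 and PRC1.6 both had 4.17%. Below the share of all coding genes were cytokine and chemokine genes (7 of 190, 3.68%) and stroma and endothelium genes (3 of 89, 3.37%). Granulocyte and mast cell genes and developmental Polycomb target genes (both 1 of 49, 2.04%) were also below, as were erythroid and megakaryocyte genes, with 0 of 17 distal regions. These counts are small. The lymphoid and plasmacytoid share is 4 of 62, with 3 at Klrb1c. The order of the lists was not tested.

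**Figure D4:**
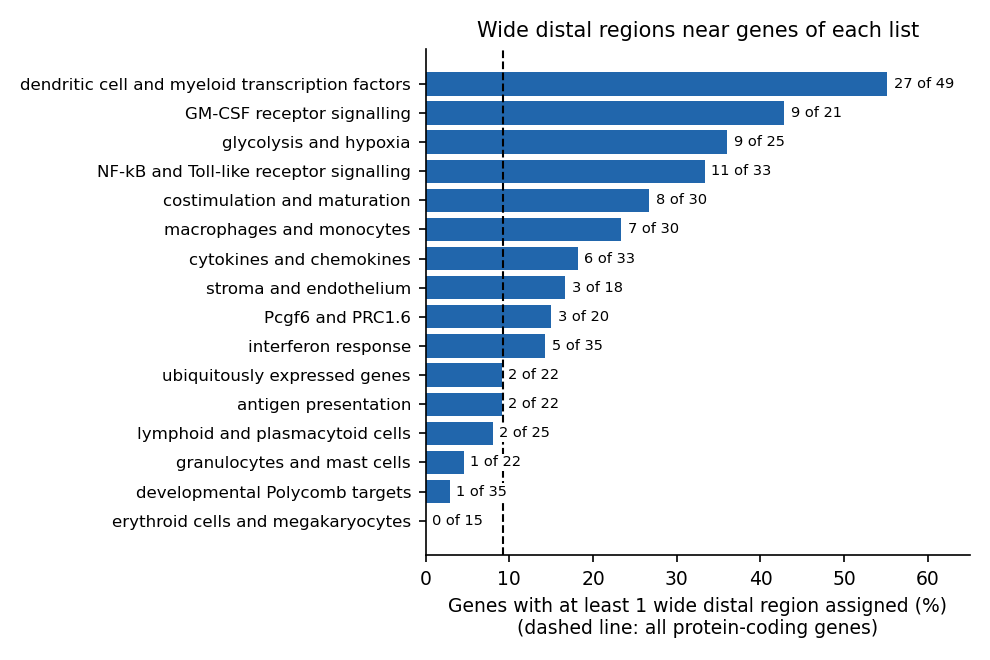
Genes with at least 1 wide distal region assigned (x axis, %), for each of 16 gene lists, with the number of genes beside each bar. The dashed line is the 9.29% of all coding genes. The longest bar is dendritic cell and myeloid transcription factors at 27 of 49, and erythroid and megakaryocyte genes have 0 of 15.

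Between OE and its control mi8, most wide distal regions had shorter cover and lower pileup in OE. Cover was shorter in OE in 87.9% of them, against 85.5% of all regions in all 4 lists, and pileup was lower in 78.1%, against 79.99%. Their median ratios were nearer to 1 than those of all regions. The median ratio of covered length, OE to mi8, was 0.832, against 0.784 over all 91644 regions in all 4 lists. Cover was at least 1.5 times shorter in OE in 654 regions (23.0%), where the background over all regions was 31%, and at least 1.5 times longer in 28 (0.983%), where it was 1.06%. The median pileup ratio was 0.868, against 0.778. OE pileup was at least 1.5 times lower in 437 (15.3%, background 33.6%) and at least 1.5 times higher in 9 (0.316%, background 1.56%). Wide gene-end regions were nearer to 1 still, with median ratios of 0.878 for cover and 0.948 for pileup. Of these, 12.4% had at least 1.5 times shorter cover in OE and 7.26% at least 1.5 times lower pileup. After division by the median ratio of all regions, 97 wide distal regions were at least 1.5 times higher (3.41%, background 7.05%) and 107 at least 1.5 times lower (3.76%, background 13.4%), and their median was 1.12 against 1.

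From a mi8 pileup of 40 upwards, the median OE to mi8 ratio was higher in each higher range of mi8 pileup in all 3 classes of regions. At mi8 pileups of 60 to 79, the median OE to mi8 ratio was 0.852 in 1012 wide distal, 0.762 in 10222 narrow distal and 0.912 in 1674 wide gene-end regions. At 80 to 99 it was 0.907, 0.849 and 0.979. Wide distal regions lay between the other classes in both.

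**Figure D5:**
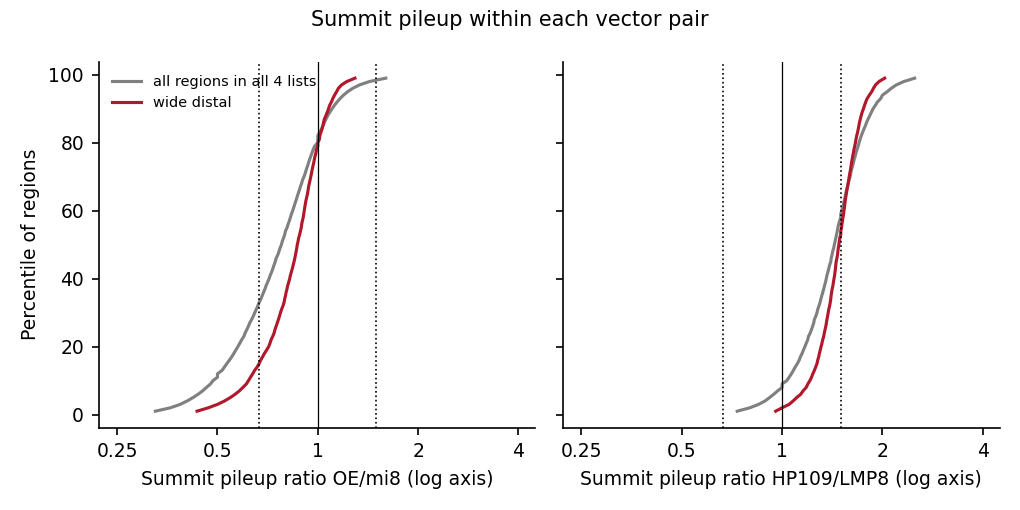
Percentile of regions (y axis) below each summit pileup ratio (x axis, log scale) for OE to mi8 and HP109 to LMP8. Red is wide distal regions and grey all regions in all 4 lists, and dotted lines mark 1.5-fold. The red curve is steeper than the grey in both panels, with median ratios of 0.868 and 1.48.

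The named regions with the shortest cover in OE relative to mi8 lie at Tgm2 and Cd36. Tgm2, encoding a transglutaminase of macrophages, had 6 wide distal regions within 16.8 kb. At chr2:158120185-158121283 peaks covered 800 bp in HP109, 199 bp in LMP8, 103 bp in OE and 1099 bp in mi8. At chr2:158128739-158129976 they covered 903, 671, 124 and 1209 bp. OE cover was at least 1.5 times shorter than mi8 in 4 of the 6, and OE pileup at least 1.5 times lower in 4. In the 4 with shorter cover, mi8 also covered more than the other control list LMP8, with ratios of 5.52, 3.22, 1.80 and 2.09. The contrast there is therefore also one between the 2 control lists. In these 4 regions mi8 covered all or nearly all of the width that chose them. Part of the shorter cover in the other lists is therefore built into the choice of regions. The highest region of the group (chr2:158132653-158134492) differed less, with pileups of 110 in HP109, 65 in LMP8, 91 in OE and 102 in mi8.

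Cd36 encodes a scavenger receptor for lipids. OE cover was at least 1.5 times shorter than mi8 in 6 of its 8 wide distal regions and longer in none. At chr5:17770428-17773332, just outside the gene, OE covered 185 bp, mi8 2443 bp, HP109 2734 bp and LMP8 2345 bp, with pileups of 27, 57, 67 and 46. At chr5:17785980-17787508 the pileup was 30 in OE, 67 in mi8, 77 in HP109 and 50 in LMP8. OE was below all 3 other lists in both. The other two differed less in cover, with 936 bp in OE beside 955 bp in mi8 at chr5:17853897-17855092 and 622 beside 861 bp at chr5:17824215-17825216. OE pileup was at least 1.5 times lower than mi8 in 3 of the 8, and above mi8 in 2, at chr5:17814507-17816032 (56 against 53) and chr5:17816084-17817287 (23 against 20). The lowest OE to mi8 pileup ratios belonged to 3 other regions, at chrX:11664338-11665338 (11 against 42), chr13:6240939-6242110 (18 against 64) and near Zfp36l2, an RNA-decay factor gene (chr17:84119163-84120199, 16 against 53).

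OE cover was longer than mi8 in 343 wide distal regions (12.0%), against 14.1% of all regions in all 4 lists. OE pileup was higher in 563 (19.8%, against 17.2%). Longer cover by at least 1.5 times was rare (0.983%, background 1.06%). Many of those regions lay at a handful of places, described here after their values were seen. Covered length also makes up the width that chose the regions, so some passed the width rule only through the list with long cover. Of the 28 with at least 1.5 times longer cover in OE, 7 lie in the end of Cdh23 beside Psap, the prosaposin gene, 4 in Mdm2, the p53 ubiquitin ligase gene, 4 around Malat1 and 2 around Neat1 (assigned to Frmd8). The remaining ones were single regions, including 1 at Hif1a. Cdh23 encodes a cadherin of hair cells, and its 9 regions lie within 25.4 kb and fill 59.2% of that stretch.

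At Neat1, the region at chr19:5836832-5838570 was covered by 1739 bp in OE, 229 bp in mi8, 860 bp in HP109 and 349 bp in LMP8. Its pileups were 24, 14, 28 and 14, so HP109 was also above LMP8 there. Just past the 3′ end of Malat1, at chr19:5793051-5794450, OE covered 1400 bp, mi8 350 bp, HP109 1159 bp and LMP8 629 bp. The pileups were 38, 14, 27 and 16. This OE to mi8 pileup ratio of 2.71 was the highest of all wide distal regions. In both regions OE cover equals the full width, so its length is partly set by the choice of regions. OE covered more than mi8 in 4 of 5 regions assigned to Frmd8.

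The widest Cdh23 region (chr10:60304544-60307797, 3254 bp) had pileups of 55 in OE, 32 in mi8, 35 in HP109 and 21 in LMP8. Across the group OE covered more than mi8 in 9 of 9, with a median ratio of 1.602, and HP109 more than LMP8 with a median of 1.69. Height and cover did not go together, since OE pileup was above mi8 in only 4 of the 9. In Mdm2, OE had the longest cover of the 4 lists. At chr10:117698565-117699767 peaks covered 1196 bp in OE, 164 bp in mi8, 96 bp in HP109 and 128 bp in LMP8, with pileups of 21, 13, 9 and 8. This region is 1203 bp wide and passed the width rule only through OE, so its long OE cover is part of the choice. At chr10:117706124-117707570 peaks covered 1447, 611, 943 and 510 bp. No test of a difference between the pairs could be made.

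The 9 regions with OE pileup at least 1.5 times mi8 also include Pax6 (37 against 22), Prkag2 (95 against 63) and Ddx5 (19 against 12). Prkag2 encodes a regulatory subunit of AMP kinase and Ddx5 an RNA helicase. Of the 9, the Prkag2 region was the one with high pileup in every list, at 61 in HP109 and 41 in LMP8.

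Between HP109 and its control LMP8, cover was close to equal while pileup was higher in HP109. The median ratio of covered length was 1.01, against 1.05 over all regions. Cover was at least 1.5 times longer in HP109 in 69 (2.42%, background 9.14%) and in LMP8 in 34 (1.19%, background 2.97%). Pileup was at least 1.5 times higher in HP109 in 1348 (47.3%, background 42.6%) and in LMP8 in 3 (0.105%, background 0.525%). The median pileup ratio of 1.48 in wide distal regions was near the 1.43 of all regions. Wide gene-end regions were alike, with a median of 1.48 and 47.2% at least 1.5 times higher in HP109. After division by the median of all regions, 11 wide distal regions (0.386%) were at least 1.5 times higher in HP109 (background 3.64%) and 29 (1.02%) lower (background 6.48%), and their median was 1.03 against 1.

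The strongest contrasts were at a few genes. At Asmt, a melatonin synthesis gene (chrX:170673969-170675209), peaks covered 1046 bp in HP109, 205 bp in LMP8, 757 bp in OE and 772 bp in mi8, with pileups of 30, 12, 29 and 31. LMP8 stood apart there, and the other 3 lists were alike in pileup. Past Btg1 (chr10:96631727-96633563) the pileups were 64 in HP109, 23 in LMP8, 72 in OE and 60 in mi8, and LMP8 was again the low list. Inside Fto, an RNA demethylase gene (chr8:91376068-91377269), they were 73, 29, 55 and 60. Pileup was higher in LMP8 in 42 wide distal regions (1.47%), against 7.13% of all regions in all 4 lists. In 3 of them it was at least 1.5 times higher. These were at Nsmaf, an adaptor of TNF receptor signalling (9 in HP109, 16 in LMP8), and at 2 transcription factor genes, Ebf3 (15 and 24) and Sp8 (10 and 16). All 3 were low in every list, the highest value being 38 in mi8 at Ebf3.

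Low OE and high HP109 pileup, each by at least 1.5-fold against the own control, came together in 140 wide distal regions (4.92%), against 11.2% of all regions in all 4 lists. HP109 was higher in 32.0% of the 437 regions that were lower in OE, and in 50.1% of the others. Over all regions these shares were 33.4% and 47.3%. The OE and HP109 pairs use different control lists but the same input library.

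The 2 control lists also differed from each other. Cover in mi8 was at least 1.5 times longer than in LMP8 in 109 wide distal regions (3.83%, background 13%) and shorter in 10 (0.351%, background 1.2%), and the median ratio was 1.06. In Tgm2, at chr2:158120185-158121283, mi8 covered 1099 bp and LMP8 199 bp. At Atp2b1, a calcium pump gene (chr10:98941716-98942770), mi8 covered 1055 bp and LMP8 280 bp. For comparison, cover was at least 1.5 times longer in HP109 than in LMP8 in 69 (2.42%, background 9.14%). It was at least 1.5 times longer in mi8 than in OE in 654 (23.0%, background 31%). The Tgm2 and Atp2b1 regions above were covered in full by mi8, which had the longest cover in 1545 regions (54.2%). The width rule therefore favours long mi8 cover, and these counts do not rank the contrasts.

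The threshold of 1000 bp cuts through a continuous range. Just inside it, 13 wide distal regions are exactly 1000 bp wide, and the first 3 of these in genome order were assigned to Ptgs2 and Tnfsf8, with 1 far from any coding gene. Just outside, 8 distal regions are 999 bp wide, of which the first 3 were assigned to Kcnq5, Src and Cebpb. The 449 wide distal regions of 1000 to 1049 bp had median pileups of 68 in HP109, 45 in LMP8, 58 in OE and 70 in mi8. The 535 distal regions of 950 to 999 bp had 66, 44, 56 and 70.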

How the data were processed

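ATAC-seq peaks were analysed from 8 libraries (2 per vector) and 1 input library. Reads were handled with BWA, Picard and MACS2 on mm10, per the submitters' processing notes, with versions and settings not given in the sources used here. Per the labels, the authors made 1 list from both libraries of a vector against the input, and the list names say that reads were downsampled. The deposited lists hold, per peak, a score, a fold enrichment (a linear ratio over background), −log10 p and −log10 q and the summit.

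Peaks were merged where they touch or overlap by 1 bp (Python 3.11.15, pandas 2.3.3, the same 194700 regions by bedtools 2.31.1). Covered length is the bases of a region under peaks of a list, and it also makes up the width that chose the regions. Summit pileup was recovered as the whole number that gives the deposited fold and −log10 p under a Poisson model, within 0.001 of −log10 p for 100% of peaks in each list. Merging, the choice rule and this recovery were tested on simulated data. Ratios within a pair were called at 1.5. Gene names come from RefSeq (GRCm38.p6), and 435 of 436 list entries were found. Named regions are the 10 widest, the 10 with the highest lowest −log10 q, the most unequal per pair, the widest per gene list, those at the genes with most regions and those beside the width threshold. Regions named for a miRNA, lncRNA or snRNA gene, and those where OE exceeded mi8, were chosen after their values were seen. The members and lists were chosen with earlier results of these data known. Lists pool replicates, so no test between vectors was possible. Exact binomial intervals (95%) cover counting error only. A few named regions are not reported here.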

Additional observations from a re-analysis of the deposited data

How the results depend on the processing

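Each result was recomputed with 1 choice changed, giving 69 alternative values, of which 35 stayed close to the reported ones (counts within 1.5 times, shares within the 95% exact binomial interval). The causes of the moves were not tested. The number of regions was 646 at 1500 bp, 7218 at 750 bp, 560 where each list needs its own peak of 1000 bp, 1808 without RefSeq starts and non-coding genes (chosen after seeing the data), and 2179 to 2739 when merging without 1 list. At 1500 bp, 15.02% were shorter in OE, 9.75% lower in OE pileup, 44.3% higher in HP109 pileup, 68.1% in a gene span, 12.7% with a neighbour, and 30.6% of transcription factor genes had one. At 750 bp these were 28.3%, 21.5%, near the main value, 58.3%, 36.4% and 75.5%, and cover was longer in HP109 in 3.85%. With −log10 q of at least 5, longer cover in HP109 was 3.81%, and with 111488 peaks per list it was 3.18%, with 20.3% shorter in OE. Where each list covers the greater part of the region, the shares were 13.1% shorter in OE, 1.01% longer in HP109, 10.5% lower OE pileup and 18.9% with a neighbour. Beyond 2.5 kb, 58.1% were in a gene span. At a ratio of 2, cover was shorter in OE in 8.32% and longer in HP109 in 0.878%, and pileup lower in OE in 3.16% and higher in HP109 in 1.44%. Within 5 kb, 14.2% had a neighbour. Centring on all regions (chosen after seeing the data) gave 3.76% lower in OE and 0.386% higher in HP109. Without starts and non-coding genes, 25.1% were shorter in OE, 17.0% lower in OE pileup and 19.1% had a neighbour. No paired analysis was possible because each vector has 1 pooled list, whose columns carry no replicate. Depth is unknown, and unequal list lengths and 1 shared input limit every contrast.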
